A study of Mus musculus with 100 samples.

Results

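Expression from the BL6 and the CAST allele was compared within female mouse embryonic fibroblasts (MEFs), the donor cells of the study's induced pluripotent stem cells (iPSCs). The genes described are the 9030 autosomal genes with at least 20 allelic reads, reads that carry a SNP of one parental strain, in each of the 3 female MEF libraries. They were drawn from 24483 autosomal genes of the table, 13773 of which had an allelic read in these libraries. The series holds 18 RNA-seq libraries in 6 groups, 3 per group.

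The MEFs were F1 hybrids of an i4F-BL6 mother, C57BL/6J with a doxycycline-inducible Yamanaka cassette and its rtTA transactivator at Rosa26, and a Mus musculus castaneus (CAST/EiJ) father. They were taken from midgestation embryos and are the parental cells, before reprogramming. By the study's methods the female MEFs came from a single embryo, so the 3 libraries are no sample of animals and p-values measure only the spread between libraries. The cross was made in 1 direction, and the maternal allele is therefore always BL6 and the paternal allele always CAST. Strain and parent of origin cannot be told apart here. The comparison groups were pluripotent: TX 2i ESCs, a female ESC line from a BL6 female and a CAST male, without the cassette, grown in 2i, and F KSR4, 1 female iPSC clone derived from i4F-BL6 × CAST MEFs in medium with Knockout Serum Replacement.

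In a hybrid cell both alleles share the same nucleus and the same transcription factors. A lasting difference between them is known as a cis difference, and it can come from sequence variants in promoters, enhancers or transcripts or from a mark set in a parent's germline. Imprinted genes show the latter kind at its extreme, with 1 parental copy silent. Allelic counts read this directly, but a read without an informative SNP is not assigned, and gene copies elsewhere in the genome can add reads to 1 allele.

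Between 15109188 and 17921280 reads per MEF library fell on genes, and 19.3 to 19.9% of them were allelic. Fibroblast markers were high, with a summed level of 38360 to 50060 RPM over 13 genes, while 4 of 6 pluripotency markers had no read. Library 1 stood apart from libraries 2 and 3. Its median maternal share over 253 X-linked genes was 25.8%, against 40.2% and 40.3%, and it was the lowest of the 3 at 229 of these genes. Among the autosomal genes library 1 was lowest at 35.1%. Library 1 had the fewest reads on genes. All 4 endothelial markers had their lowest count in library 1, among them the receptor Kdr (24, 153 and 163 reads in libraries 1 to 3). So did the muscle markers Actc1 (5, 66 and 76 reads), Tnnt2, Des and Myog. Of the cartilage markers Acan (499, 315 and 283 reads) and Col2a1 were highest and Col9a1 and Matn1 lowest in library 1. Of the immune markers Ptprc, Cd68 and Tyrobp were lowest and Cd52 highest there. The epithelial markers were mixed, with Cdh1 (1, 38 and 36 reads), Krt18 and Epcam lowest and Krt8 (47, 13 and 26 reads) and Krt14 highest in library 1, and no read of Krt5. Autosomal results are given with all 3 libraries, and without library 1 the number of genes called was 2247 instead of 2184.

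Most genes were expressed from both alleles at nearly equal levels, and departures were graded. The maternal share, the percentage of a gene's allelic reads that carried BL6 SNPs, had a median of 51.6%, 51.5% and 51.7% in the 3 libraries. Averaged over libraries, the 25th and 75th percentiles of genes lay at 47.6% and 55.6%, and 5250 genes, or 58.1%, lay between 45% and 55%. At the far ends 30 genes lay under 10% and 28 over 90%. The number of genes fell away from the balance point on both sides and was higher again in the end bins, with 19 genes in the lowest and 14 in the highest 2.5%, of which 16 were on an imprinted list, as the histogram of maternal shares shows.

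**Figure D1:**
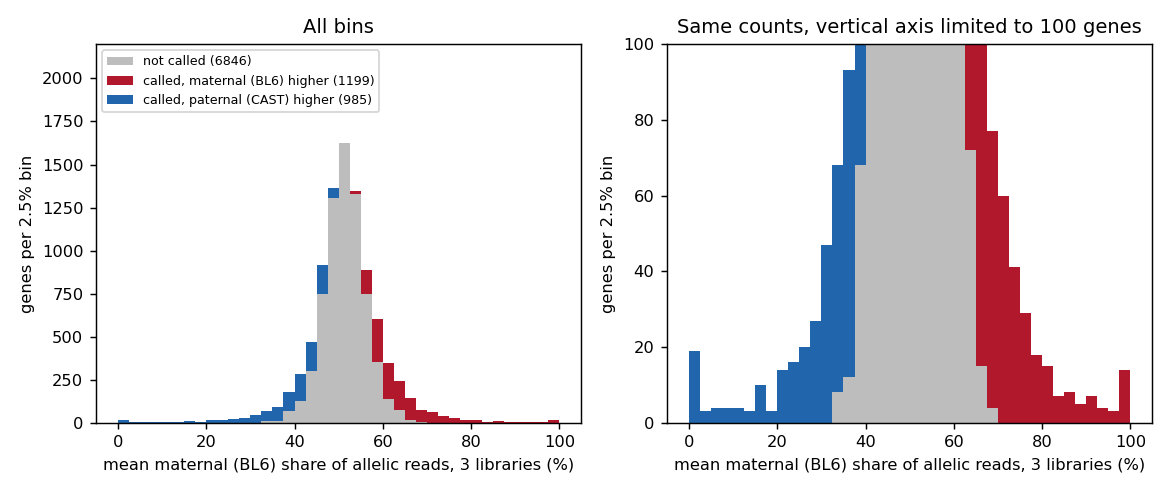
Mean maternal (BL6) share of allelic reads over the 3 female MEF libraries for 9030 autosomal genes, on the horizontal axis in percent, against the number of genes per bin, with called genes in colour. The right panel repeats the counts with its axis ending at 100 genes, so that the 30 genes under 10% and the 28 over 90% can be seen.

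Each gene's log2 ratio of maternal to paternal reads was centred on the library's median gene and tested with limma against 0 at a Benjamini-Hochberg adjusted p of 0.05. An allelic difference was called at 2184 genes, 24.2% of those tested, with the maternal allele higher at 1199 (13.3%) and the paternal allele higher at 985 (10.9%). Of the called genes 2171 lay on the same side in all 3 libraries. The difference was at least 2-fold at 508 genes (5.63%), 276 maternal and 232 paternal, and under 1.5-fold at 1000. The split depends on where the balance point is set. Without centring, 1651 genes were called maternal and 705 paternal, and with each allele scaled to its own total 747 and 2000, with the median gene at 0.09 and -0.16 on the log2 scale. Under all 3 scalings 747 genes kept a maternal (8.27%) and 705 a paternal call (7.81%), 1452 genes in all (16.1%). Without library 3, with the centring on the median gene, 1289 genes were called instead of 2184.

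Calls were more frequent at greater depth. In the shallowest quartile of genes, with 20 to 56 allelic reads in the shallowest library, 15.5% were called, and the smallest called difference was 0.57 on the log2 scale. In the deepest quartile 38.4% were called. Among the 356 genes with at least 1000 allelic reads 57.9% were called, 102 maternal and 104 paternal, with a median absolute log2 difference of 0.29 at the called genes. The interquartile range of shares was 11.3 percentage points in the shallowest quartile and 6.11 in the deepest. In the plot of allelic difference against depth, the cloud of genes not called narrows to the right.

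**Figure D2:**
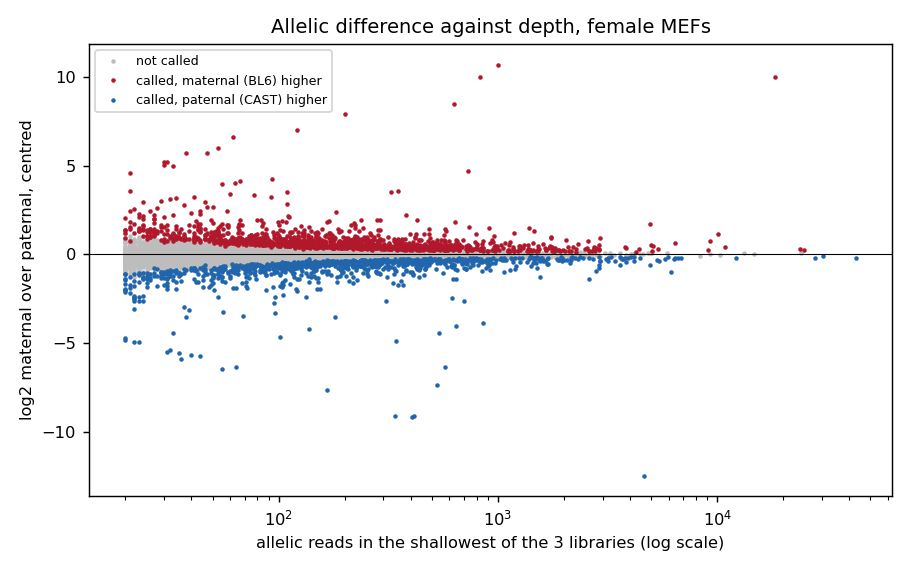
Centred log2 ratio of maternal over paternal reads in female MEFs, each point 1 of 9030 genes, against the allelic reads in its shallowest library on a log axis. Called genes in colour reach towards 0 at high depth, where 57.9% of the 356 genes with at least 1000 reads were called.

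Acta2, Col1a1, Fn1 and Vim were picked as the genes with most allelic reads among those with a mean share between 45% and 55%. Their closeness to balance was thus set by the choice and is no result. Acta2, smooth muscle actin, had maternal shares of 50.1%, 49.8% and 50.1% from 30362, 32500 and 34792 allelic reads. The 3 values were almost alike and lay under the share of the median gene, and its centred log2 difference of -0.09 (SE 0.02) gave a limma adjusted p of 0.0102, a call lost among other settings without centring, with centring by chromosome, and without library 2 or 3. Col1a1, a chain of type I collagen, stood at 48.2%, 47.6% and 47.9%, and its difference of -0.21 (SE 0.02) was called (limma adjusted p = 1.02e-05). Fn1, fibronectin, the deepest gene, had shares of 50.3%, 47.2% and 47.4%. Library 1 was the highest of them, and the difference of -0.19 (SE 0.03) was called (limma adjusted p = 0.000248). Vim, vimentin, stood at 53.1%, 52.1% and 52.6% and was not called (limma adjusted p = 0.131).

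Genes with a moderate maternal excess included several secreted matrix proteins. Fbln2, fibulin 2, a matrix glycoprotein at chr6:91212455-91272540 (GRCm38 here and below), had 7001, 11267 and 10179 maternal against 3038, 4746 and 4158 paternal reads. Its shares of 69.7%, 70.4% and 71.0% differed little between libraries, and the difference was 1.16 (SE 0.03, limma adjusted p = 3.40e-13). Tnc, tenascin C (chr4:63959785-64047015), had shares of 64.5%, 60.8% and 60.8%, and Postn, periostin (chr3:54361109-54391034), 64.6%, 58.7% and 58.6%. Both were called, with library 1 highest in each. Eno1, a glycolytic enolase (chr4:150236721-150248879), stood at 63.7%, 60.8% and 64.3%.

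Paternal excess of like size was found at Actg1, Gsto1, Ptn and Plxdc2. Actg1, cytoplasmic gamma actin (chr11:120345690-120348542), had the most even values, 34.7%, 34.4% and 34.7% from 6181, 8068 and 7607 reads, and a difference of -1.01 (SE 0.03, limma adjusted p = 8.00e-12). Actin genes have processed copies in the genome, so part of its reads may be shared with a copy. Ptn, the growth factor pleiotrophin (chr6:36715663-36811361), stood at 39.1%, 38.9% and 38.3%, and Plxdc2, a plexin-domain membrane protein (chr2:16356304-16755839), at 35.6%, 35.4% and 34.4%. Gsto1, a glutathione transferase (chr19:47854970-47864790), stood at 41.1%, 37.1% and 34.9%, a wider spread than at the 3 other genes.

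Stronger bias towards the maternal allele was seen at Spp1, Tuba1a, Mt1 and Lyz2. Spp1, osteopontin, a secreted phosphoprotein of matrix and bone (chr5:104435118-104441050), had shares of 73.0%, 79.6% and 79.9% and a difference of 1.70 (SE 0.07, limma adjusted p = 1.59e-10). Mt1, metallothionein 1, a metal-binding protein (chr8:94179089-94180325), had 99, 836 and 1016 maternal against 13, 233 and 281 paternal reads. Library 1 held far fewer reads of it and a higher share, 88.4% with a 95% Wilson interval of 81.1 to 93.1%, than library 2, 78.2% with an interval of 75.6 to 80.6%. Lyz2, a lysozyme of macrophages (chr10:117277334-117282274), stood at 80.9%, 76.9% and 80.1%. The immune markers Ptprc, Cd68, Tyrobp and Cd52 had a summed level of 29.5 to 50.3 RPM in these libraries, and their part in the Lyz2 value was not tested. In bulk RNA fewer cells of a type and less RNA per cell cannot be told apart. Lyz1 is a near-identical neighbour that could share reads with Lyz2. Tuba1a, an alpha tubulin with close paralogs (chr15:98949841-98953551), stood at 73.5%, 75.7% and 76.2%.

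Stronger bias towards the paternal allele was seen at Sod3, Cd55 and Slc5a7. Sod3, extracellular superoxide dismutase (chr5:52363946-52371405), had shares of 25.6%, 22.6% and 26.2% and a difference of -1.70 (SE 0.09, limma adjusted p = 2.57e-09). Cd55, a membrane inhibitor of complement (chr1:130439027-130462744), stood at 25.0%, 19.5% and 20.2%. Slc5a7, the choline transporter (chr17:54273594-54299034), stood at 26.1%, 18.2% and 21.5%. No share of these 3 genes reached 30% in any library.

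Near-complete bias was found at few genes outside the imprinted lists. Of 58 genes outside 10 to 90%, 38 were on neither imprinted list, 18 of them with symbols of unnamed transcripts, pseudogenes or ribosomal protein genes, which have near-identical copies. With at least 100 allelic reads per library, 3 named genes lay over 90% and 2 under 10%. Thy1, a surface glycoprotein used as a fibroblast marker (chr9:44043384-44048579), had 713, 705 and 747 maternal against 37, 22 and 21 paternal reads, shares of 95.1%, 97.0% and 97.3%, and a difference of 4.72 (SE 0.12, limma adjusted p = 2.86e-13). Myo7a, an unconventional myosin (chr7:98051060-98119524), stood at 92.7%, 92.2% and 92.6%. Ubb, polyubiquitin B (chr11:62551171-62553213), stood at 92.7%, 90.5% and 93.9%, with repeated units whose reads may be placed on other ubiquitin genes.

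On the paternal side stood Clca1, a secreted protein of the calcium-activated chloride channel regulator family (chr3:144729677-144760977), and Ppbp, a platelet chemokine (chr5:90768518-90770060). Clca1 had 50, 24 and 24 maternal against 487, 772 and 666 paternal reads, shares of 9.31%, 3.02% and 3.48%. Library 1 was the highest, and its Wilson interval of 7.13 to 12.1% did not overlap that of library 2, 2.03 to 4.45%. Clca1 belongs to a cluster of close relatives that could share reads. Ppbp also had its highest share in library 1, with shares of 13.9%, 6.64% and 6.23%. Without library 1 the mean share was 3.25% for Clca1 and 6.44% for Ppbp, and both remained called. The plot of named genes by library shows the whole scale from Igf2 to Meg3.

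**Figure D3:**
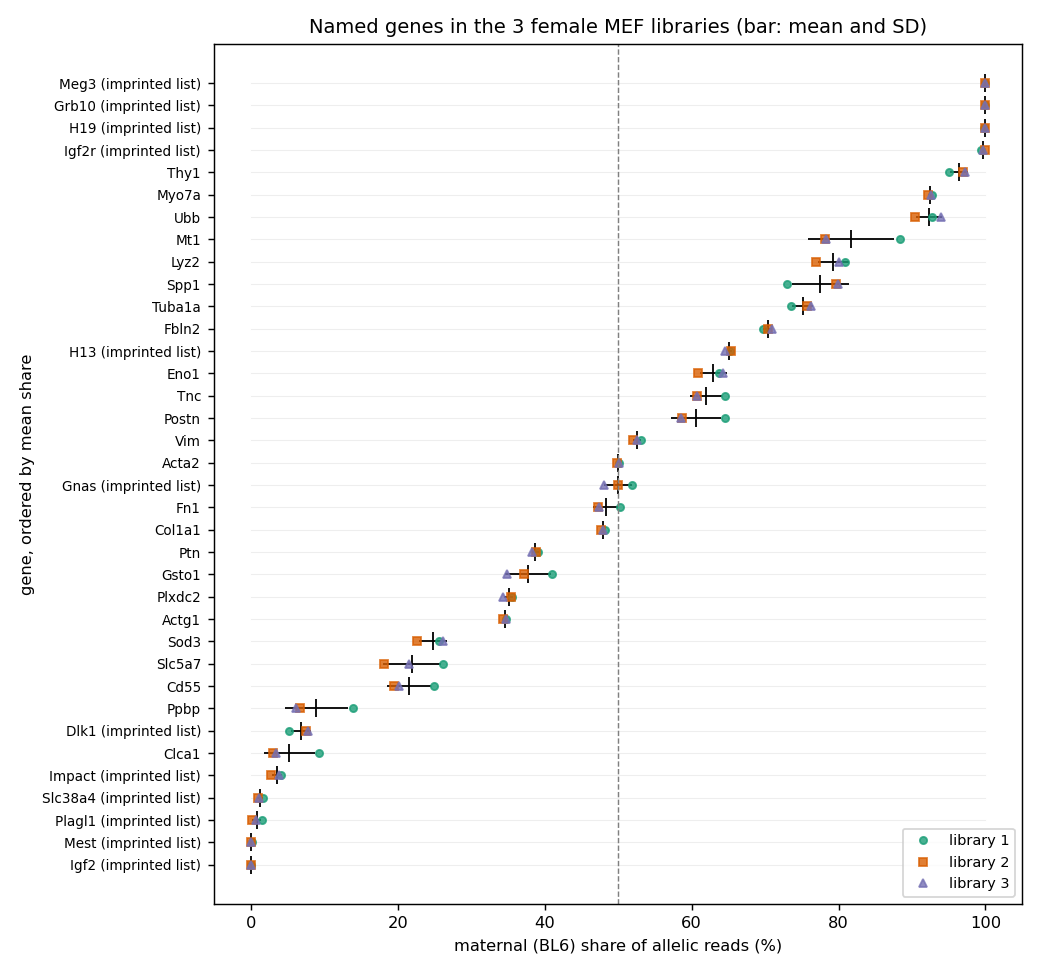
Maternal share of allelic reads, horizontal axis in percent, of the named genes in each of the 3 female MEF libraries, with the mean and SD as a bar. Genes outside the imprinted lists fill the range from Clca1 at 5.27% to Thy1 at 96.4%, and library 1 lies apart at Clca1, Ppbp, Mt1 and Spp1.

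Known imprinted genes mark the ends of the scale. Igf2, a growth factor expressed from the paternal allele, had 0, 0 and 1 maternal reads against 4896, 5543 and 4622 paternal reads. Peg3, a zinc finger gene expressed from the paternal allele, had no maternal read among 1434 allelic reads, which allows a share of up to 0.209%. H19, a maternally expressed noncoding RNA, had shares of 99.8%, 100% and 99.9%, and Meg3, a maternally expressed noncoding RNA of the Dlk1 cluster, had 1 paternal read in the 3 libraries. Of 17 measured genes listed as paternally expressed, 13 were called paternal and Smoc1, a matrix protein gene at 70.8% ± 5.96 (SD, n = 3), maternal. Of 23 listed as maternally expressed, 11 were called maternal and Tfpi2, a protease inhibitor at 25.5% ± 11.2 (SD, n = 3), paternal. Over all genes tested 13.3% were called maternal and 10.9% paternal. Gnas, a G protein subunit gene at a locus that also holds oppositely imprinted transcripts, stood at 50.0% and was not called (limma adjusted p = 0.277). Its reads were not divided by transcript. Some of the listed genes were chosen by the study on these samples, so the counts are no independent evidence of direction.

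Matrix genes were called on both sides. Of 48 matrix glycoproteins and cross-linking enzymes 36, or 75%, were called, 20 maternal and 16 paternal, against 24.2% of all genes, and their median depth of 715 allelic reads was above the 118 of the median gene. Without centring the split was 27 to 14, and with own allele totals 17 to 19. Under all 3 scalings 17 remained maternal, among them Fbln2, Eln (66.9% ± 1.69), the elastin gene, Fbln1 (62.9% ± 0.94) and Sparc (56.8% ± 1.70), and 14 paternal, among them Lama5 (37.5% ± 5.07), a laminin chain, Plod2 (38.0% ± 3.58), a lysyl hydroxylase, and Fbn1 (45.6% ± 1.00), fibrillin 1 (SD, n = 3 for each). Members of a family differed in side. Among the fibulins Fbln2 and Fbln1 were maternal and Fbln5 paternal at 45.1% ± 1.36, and among the fibrillins Fbn1 was paternal and Fbn2 maternal at 56.9% ± 1.85, a call not kept under all 3 scalings (SD, n = 3 for each).

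Collagen genes were split too. Of 24 measured collagens 8 were called maternal and 9 paternal (70.8%, against 24.2% of all genes, at a median depth of 1710 reads), with 11 and 6 without centring and 4 and 11 with own allele totals. Without library 3 the 17 calls fell to 10, and without the intensity trend to 4. Col10a1, a collagen of hypertrophic cartilage, was the highest at 73.8% ± 2.02, and Col2a1, the cartilage collagen, the lowest at 40.4% ± 2.41 (SD, n = 3 for each). The summed level of the 4 cartilage markers was 514 to 717 RPM. Col5a1, Col5a2 and Col1a1 stayed paternal under all 3 scalings, at 41.6% ± 0.74, 48.6% ± 0.23 and 47.9% ± 0.27 (SD, n = 3 for each).

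Among 35 matrix proteases and their inhibitors 8 were called maternal and 9 paternal (48.6%, against 24.2% of all genes), a split of 12 to 5 without centring and 6 to 14 with own allele totals. Plau, the urokinase plasminogen activator, was the lowest at 27.7% ± 4.62, while Plaur, its receptor, was on the maternal side at 63.2% ± 1.82 (SD, n = 3 for each). Mmp13, a collagenase, was the highest at 65.1% ± 1.88, and Mmp2, a gelatinase, stood at 45.3% ± 1.62 (SD, n = 3 for each). Of 37 contractile cytoskeleton genes 9 were called maternal and 13 paternal (59.5%), with 16 and 6 without centring and 5 and 16 with own allele totals. Their median depth was 1568 allelic reads, and of all genes with at least 1000 reads 57.9% were called. Tpm3, a tropomyosin, was the highest at 79.0% ± 3.49, and the myosin light chains Myl6 and Myl12a stood at 65.6% ± 1.26 and 72.4% ± 1.48 (SD, n = 3 for each).

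Signalling and transcription factor genes had median depths of 145 and 114 allelic reads, and 38.2% and 25.0% of them were called. Over all genes 24.2% were called. Of 34 growth factor and receptor genes 8 were called maternal and 5 paternal, which turned to 3 and 11 with own allele totals and fell to 1 and 3 without library 3. Gdf15, a stress-induced cytokine, was the lowest with 25, 26 and 23 maternal against 69, 87 and 96 paternal reads, Hbegf, an EGF receptor ligand, stood at 37.1% ± 5.32 and Egfr, the receptor, at 41.9% ± 5.12 (SD, n = 3 for each). Pdgfrb, a platelet-derived growth factor receptor of mesenchymal cells, stood at 59.2% ± 1.61 (SD, n = 3). Of 32 mesenchymal transcription factors 5 were called maternal and 3 paternal, near the share of all genes, and 4 and 6 with own allele totals. Meox1 was the highest at 79.9% ± 4.53, Foxd1 the lowest at 35.6% ± 5.36, and the related Prrx1 and Prrx2 lay on opposite sides at 56.7% ± 0.35 and 42.3% ± 3.64 (SD, n = 3 for each). Of 12 Hox genes only Hoxb9, at 75.6% ± 9.68, and Hoxd8, at 29.5% ± 4.22, were called (SD, n = 3 for each), and leaving out a library gave 1 to 4 calls.

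Genes of interferon response and antigen presentation had 8 maternal and 2 paternal calls among 21 measured, or 47.6%. Of all genes 24.2% were called, 13.3% maternal and 10.9% paternal. The split was 8 and 1 without centring and 7 and 2 with own allele totals. With at least 100 allelic reads it was 3 and 2 among 10 genes, and without the intensity trend 4 and 1. The median depth of the list was 96 allelic reads. The 2 classical MHC class I genes were near one end: H2-K1 had 89, 102 and 107 maternal against 4, 7 and 4 paternal reads, a mean share of 95.2%, and H2-D1 stood at 90.7% ± 2.30 (SD, n = 3). Both belong to a family with close copies that differ strongly between strains, so their assignment is uncertain. Ifit2, an interferon-induced gene, stood at 89.0% ± 7.37 from 32 to 41 reads per library, and Ddx58, the RNA sensor RIG-I, at 69.7% ± 2.04 (SD, n = 3 for each). Stat2, which carries the interferon signal to the nucleus, was on the paternal side at 41.6% ± 0.81 (SD, n = 3).

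Detoxification and metabolic genes varied within families. Of 41 glutathione and detoxification genes 9 were called maternal and 8 paternal (41.5%, against 24.2% of all genes), with 13 and 6 without centring, 7 and 9 with own allele totals, and 6 and 5 without library 3. Gstp1, a glutathione transferase with close copies beside it, stood at 77.1% ± 5.35 and Gstm2 at 31.6% ± 4.74, and the aldo-keto reductases Akr1b10 and Akr1b8 at 63.3% ± 1.75 and 26.0% ± 4.01 (SD, n = 3 for each). Of 26 cholesterol genes 4 were maternal and 6 paternal (38.5%), with 5 and 3 without centring and 6 calls in all without library 2 or 3. Pmvk, phosphomevalonate kinase, was the highest at 79.5% ± 0.92, and Dhcr7, the last enzyme of cholesterol synthesis, the lowest at 38.5% ± 2.49 (SD, n = 3 for each). Of 18 glycolysis genes 3 were maternal and 6 paternal (50%), with 3 and 3 without centring, 1 and 11 with own allele totals, 1 and 3 without library 2, and 1 and 2 without library 3. Pgam1, a mutase, stood at 37.7% ± 2.80 (SD, n = 3).

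The proteasome, respiratory chain and cell cycle lists had shares of called genes between 22.5% and 25.8%, near the 24.2% of all genes. Of 31 proteasome genes 2 were called maternal and 6 paternal (25.8% in all, 2 and 2 without centring and 1 and 11 with own allele totals), of 55 respiratory chain genes 6 and 7 (23.6%, 10 and 5, and 5 and 14), and of 40 cell cycle and p53 genes 3 and 6 (22.5%, 7 and 4, and 1 and 12). Without library 3 the calls of these lists fell to 5, 7 and 4, and without library 2 those of the proteasome genes to 4. Cdk4, a cyclin-dependent kinase, was set apart from the other cell cycle genes at 74.5% ± 2.45 (SD, n = 3), and Sesn2, a p53 target, was the lowest at 38.2% ± 3.28 (SD, n = 3). Of 196 Zfp-named zinc finger genes 21 were called maternal and 13 paternal (17.3%). These counts turned to 14 and 23 with own allele totals and fell to 5 and 3 without library 3. The median depth of these genes was 57 allelic reads. Of all genes in the shallowest and the next depth quartile, 15.5% and 18.7% were called. The 65 measured cytosolic ribosomal protein genes had 16 maternal and 30 paternal calls (70.8%, against 24.2% of all genes, at a median depth of 826 reads). The split was 20 and 26 without centring and 11 and 34 with own allele totals. Genes of this list ran from Rpl27 at 6.10% ± 0.56 to Rpl21 at 92.5% ± 1.78 (SD, n = 3 for each). These genes have many processed copies, and how reads are divided among the copies was not tested. The plot of gene lists shows that each list spreads to both sides of the balance point.

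**Figure D4:**
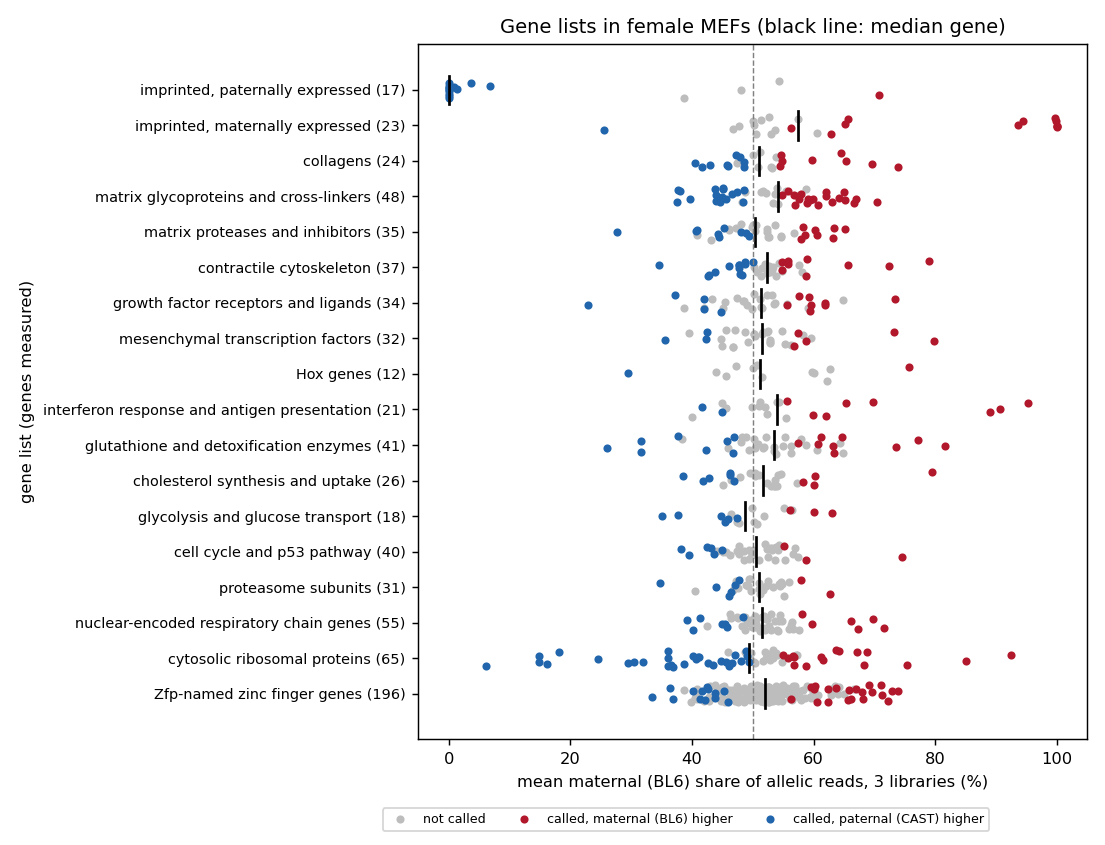
Mean maternal share over the 3 female MEF libraries, horizontal axis in percent, of each measured gene in 18 lists, with the median gene as a black line and called genes in colour. Outside the 2 imprinted lists the medians lie between 48.7% and 54.1%, while single genes reach from 6.10% to 95.2%.

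Promoter sequence was set beside the calls. RefSeq promoters (GRCm38.p6), 250 bases before to 50 after the start, matched 6543 of the 9030 genes. The letters TATAAA, searched on both strands, occurred in 10.6% of 358 promoters of genes called at 2-fold and over, in 7.35% of 1198 called under 2-fold, in 5.52% of 3659 not called between 45% and 55%, and in 13.6% of all 32851 promoters of the table. A ratio of observed to expected CG pairs under 0.6 was found in 35.5%, 23.5% and 16.8% of the first 3 sets and in 64.2% of all promoters. These 3 sets differed in depth, with medians of 59, 229.5 and 137 allelic reads. The remaining 1328 genes, not called and outside 45 to 55%, had a median depth of 58 reads. TATAAA occurred in 5.50% of their promoters, and 22.7% had a CG ratio under 0.6. The part of depth was not tested. Promoters of 4 named genes are shown for the range of shares, with the letters TATAAA or their reverse complement in capitals. Ppbp and Spp1 lie at the paternal and the maternal side with few CG pairs, Mt1 at the maternal side with many, and Acta2 at balance.
Ppbp (chr5:90768268-90768567, + strand): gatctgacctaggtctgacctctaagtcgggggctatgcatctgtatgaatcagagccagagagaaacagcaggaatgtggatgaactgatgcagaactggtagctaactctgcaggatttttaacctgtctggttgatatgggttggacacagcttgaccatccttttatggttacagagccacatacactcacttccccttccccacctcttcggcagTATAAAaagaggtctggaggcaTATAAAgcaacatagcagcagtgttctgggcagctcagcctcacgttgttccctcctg
Spp1 (chr5:104434861-104435160, + strand): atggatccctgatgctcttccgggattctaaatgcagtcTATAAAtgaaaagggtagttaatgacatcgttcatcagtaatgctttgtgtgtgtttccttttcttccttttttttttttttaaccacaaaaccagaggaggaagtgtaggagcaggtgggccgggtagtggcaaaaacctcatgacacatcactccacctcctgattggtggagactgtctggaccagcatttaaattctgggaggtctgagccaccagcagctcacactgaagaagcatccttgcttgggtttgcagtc
Mt1 (chr8:94178839-94179138, + strand): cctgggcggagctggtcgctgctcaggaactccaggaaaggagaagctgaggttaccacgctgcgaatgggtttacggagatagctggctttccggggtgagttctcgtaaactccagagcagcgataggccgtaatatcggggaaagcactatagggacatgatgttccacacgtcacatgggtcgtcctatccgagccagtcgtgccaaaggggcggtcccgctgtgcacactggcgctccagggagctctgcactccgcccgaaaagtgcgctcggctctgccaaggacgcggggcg
Acta2 (chr19:34255324-34255623, - strand): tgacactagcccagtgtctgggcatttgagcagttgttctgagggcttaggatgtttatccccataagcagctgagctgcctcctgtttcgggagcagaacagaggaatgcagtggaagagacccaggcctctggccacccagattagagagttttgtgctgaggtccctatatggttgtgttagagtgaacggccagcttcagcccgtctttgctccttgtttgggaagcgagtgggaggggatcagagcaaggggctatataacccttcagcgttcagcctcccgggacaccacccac

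Ppbp held TATAAA in 2 places, the one farther from the annotated start at position -30, and 3 CG pairs. Spp1 held it once, at position -211 from the start, and also 3 CG pairs. Mt1 held 24 CG pairs and Acta2 held 6, and neither had TATAAA in this window. The sequences are those of the reference strain, and the CAST sequence was not used here.

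Position along the chromosomes showed little grouping in chromosome medians and in correlations between neighbours that did not overlap. The median share of the 19 autosomes ran from 50.9% on chromosome 14 to 52.3% on chromosome 10, and 21.1 to 29.0% of the genes of a chromosome were called. Neighbouring genes overlapping on the same strand, which can share reads, had log2 differences with a Pearson r of 0.49 across 125 pairs. For neighbours that did not overlap, r lay between -0.02 and 0.06 across 1057 to 1748 pairs per distance class, a description across genes that share libraries. Where both such neighbours were called, 51.9 to 57.1% of pairs on the same strand lay on the same side (54 to 112 pairs per class). On opposite strands the range was 58.4 to 63.8% (69 to 101 pairs), and no test was made. The longest run of neighbouring genes called on 1 side held 5 paternal genes on chromosome 9 (92275602 to 95407270), Plscr2, Plod2, 1190002N15Rik, Slc9a9 and Chst2, with shares of 22.4 to 39.3%.

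To ask whether the bias of fibroblasts was also present in pluripotent cells of the same cross direction, the allelic difference was compared with that of TX 2i ESCs and of F KSR4. Both comparisons use the same MEF libraries. Autosomes with a library median outside 45 to 55% were left out, which removed chromosomes 4, 8 and 16 for TX 2i ESCs and chromosome 8 for F KSR4. The difference between groups was called at 882 of 6288 genes for TX 2i ESCs (14%), 447 more maternal (7.11%) and 435 more paternal (6.92%) in MEFs, and at 404 of 6645 genes for F KSR4 (6.08%), 183 (2.75%) and 221 (3.33%). Without 1 MEF library the count for F KSR4 fell to 213, 226 and 205 (libraries 1 to 3), and over all autosomes that for TX 2i ESCs was 1654. Each pluripotent group is 1 line, and line and cell state cannot be told apart.

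Most strong fibroblast biases had the same side in the other cells. Of 249 genes called at 2-fold and over in MEFs, off the imprinted lists, 206 (82.7%) lay on the same side in TX 2i ESCs. Of the 249 genes, 151 (60.6%) were also called on that side in TX 2i ESCs taken by themselves. Over all genes tested 64.5% lay on the same side and 21.2% were also called there. For F KSR4 the numbers were 216 of 259 (83.4%) and 135 (52.1%), against 64.8% and 11.8% of all genes tested. Cdk4 stood at 74.5% ± 2.45 in MEFs, 74.9% ± 1.28 in TX 2i ESCs and 74.2% ± 3.05 in F KSR4 (SD, n = 3 for each), with differences of -0.03 (SE 0.12) and 0.04 (SE 0.15) on the log2 scale. Actg1 stood at 34.6% ± 0.20, 35.2% ± 0.73 and 32.2% ± 1.63, and Ubb at 92.4% ± 1.76, 94.2% ± 0.17 and 94.0% ± 1.41 (SD, n = 3 for each). None of these 3 genes had a called difference in either comparison.

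Other genes changed their allelic share between cell types. Thy1, at 96.4% in MEFs, stood at 55.8%, 60.2% and 66.7% in TX 2i ESCs and at 43.6%, 60.5% and 40.7% in F KSR4. The groups did not overlap, and the differences were 4.16 (SE 0.22, limma adjusted p = 4.68e-10) and 4.93 (SE 0.31, limma adjusted p = 4.89e-07). Cd55, at 21.6% in MEFs, stood at 52.1% ± 2.61 in TX 2i ESCs and 60.3% ± 6.83 in F KSR4 (SD, n = 3 for each), both with a called difference.

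A few genes crossed from one side to the other. Of genes called maternal in MEFs, 52 of 799 were called paternal in TX 2i ESCs and 29 of 864 in F KSR4. Of those called paternal in MEFs, 49 of 632 and 23 of 677 were called maternal. Both sides together gave 101 of 1431 genes for TX 2i ESCs and 52 of 1541 for F KSR4. Over all genes tested, called in MEFs or not, 475 of 6288 and 190 of 6645 were called on the side opposite to MEFs. Such crossing was thus about as frequent over all genes. Gpr126, an adhesion G protein-coupled receptor, had shares of 68.1%, 76.1% and 69.1% in MEFs and 3.69%, 10.1% and 7.62% in F KSR4, a difference of 5.16 (SE 0.33, limma adjusted p = 5.23e-07). In TX 2i ESCs it stood at 13.4% ± 5.15 (SD, n = 3).

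The following genes were chosen after their values were seen. Cd38, an enzyme that consumes NAD, had shares of 29.7%, 30.3% and 11.1% in MEFs, 77.0%, 92.9% and 81.6% in TX 2i ESCs, and 81.2% ± 7.85 (SD, n = 3) in F KSR4. Both differences were called, -4.35 (SE 0.49) from TX 2i ESCs with a limma adjusted p of 7.53e-06 and a limma adjusted p of 0.000389 from F KSR4. Dpysl3, a cytoskeletal regulator of growing neurites, stood at 58.1% ± 1.77, 95.3% ± 1.11 and 91.3% ± 2.27 (SD, n = 3 for each). Gstp1 stood at 77.1% in MEFs and 36.8% ± 5.57 in F KSR4 (SD, n = 3), a difference of 2.59 (SE 0.33), while the difference of 0.61 (SE 0.29) from TX 2i ESCs was not called (limma adjusted p = 0.203). The plot of MEF against pluripotent shares places these genes off the diagonal and Cdk4, Actg1 and Ubb on it.

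**Figure D5:**
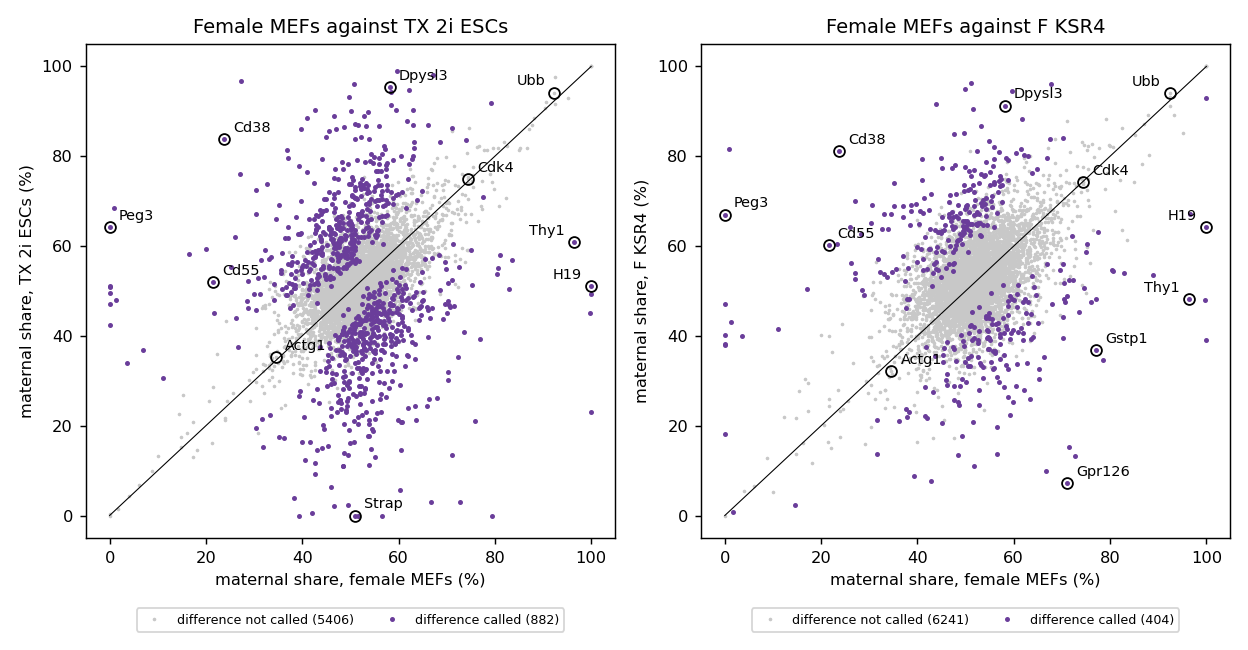
Mean maternal share in percent in female MEFs, horizontal axis, against TX 2i ESCs (left) and F KSR4 (right), each point 1 gene and the line marking equal shares. Called differences (882 and 404 genes) are in purple, and Cdk4, Actg1 and Ubb lie near the line while Thy1, Cd38 and Dpysl3 lie far from it.

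Strap, an RNA-binding adaptor protein, had the largest difference outside the imprinted lists, but it lies in a stretch of chromosome 6 where TX 2i ESCs were unbalanced. Its shares were 49.1%, 51.7% and 52.0% in MEFs, and TX 2i ESCs had no maternal read among 3331, which allows a share of up to 0.0901%. The ratio of maternal to paternal reads was at least 1161-fold higher in MEFs, at 3 reads over the group. Dera, its neighbour, also had no maternal read in TX 2i ESCs, and the 19 genes in the 10 Mb window from 130 Mb had median shares of 29.6%, 27.3% and 28.5% there, against 52.0%, 51.7% and 52.0% in MEFs. Strap lay under the medians of its window in TX 2i ESCs, and the part of the window in its difference was not tested.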

How the data were processed

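RNA-seq values of the 3 female MEF libraries, and of the 6 libraries of TX 2i ESCs and F KSR4 for comparison, were used. Per the labels and the study's methods, the authors trimmed strand-specific reads (paired-end by the labels, single-end by the study's methods) with Trim Galore 0.6.1, aligned them with HISAT2 2.1.0 to GRCm38, split them by strain-specific SNPs of C57BL/6J and CAST_EiJ, left out reads with conflicting SNPs, and counted genes in SeqMonk. The deposited values are log2 RPM, each allelic column relative to its own total. Read numbers were computed back from the log2 values, and at least 99.9% of values per MEF column lay within 0.05 read of a whole number. A gene without reads was held at 0.9 read.

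For each gene with at least 20 allelic reads in every library, the log2 ratio of maternal to paternal reads within a library was centred on that library's median gene. It was tested against 0 in limma 3.58.1 (R 4.3.3), with an intensity trend on mean allelic reads and Benjamini-Hochberg adjustment over all 9030 genes. This pairs the 2 alleles by library, because both come from the same cells. Groups were compared with a difference of such ratios between 3 and 3 libraries. Single-library shares have 95% Wilson intervals, which cover counting error only, as does the limit of 3 reads for a count of 0. MEF libraries differed by 1.38 to 1.58 times the counting variance, so none was a copy of another. On simulated data with 9030 genes at the real depths, 92% of genes changed 2-fold, 50% of those changed 1.5-fold and 20% of those changed 1.25-fold were called. There were 7 calls among unchanged genes. The simulated spread was 1.45 times the counting variance at every gene, while the deepest quartile of genes had 1.76, so false calls there were not measured. In simulated group comparisons 60% (TX 2i ESCs) and 58% (F KSR4) of genes changed 2-fold were called.

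Named genes were the 4 with most allelic reads in each class of share (at least 100 reads per library, called, on the same side in 3 libraries, with a symbol naming a protein, off the imprinted lists), 4 between 45% and 55% called or not, the lowest and highest member of each list, up to 6 genes per imprinted list and 3 genes per direction and comparison. One gene that this rule names is not reported here. Other list members were named as examples after their values were seen. The genes, lists and tests were chosen with earlier results of these data known. Gene symbols were used because 1977 deposited gene identifiers belonged to another symbol. The DNA methylation files were not used here.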

Additional observations from a re-analysis of the deposited data

Results flagged for a closer look

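The allelic difference of female MEFs differed from that of TX 2i ESCs at 882 genes and from that of F KSR4 at 404 genes in the limma test of the difference itself. The genes below were listed because this test found their allelic ratio to differ between the groups, with no overlap of the libraries. Values are centred log2 ratios in MEFs minus the other group, and where a group had no read of an allele the value depends on the 0.9 read at which zeros were held.

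Against TX 2i ESCs, Meg3 differed by 12.55, Strap by 10.32 and H19 by 10.06, with more maternal reads in MEFs. Peg3 differed by -9.89, Peg10 by -9.06 and Mest by -8.94. Against F KSR4, Meg3 differed by 11.51, H19 by 9.29 and Gpr126 by 5.16, and Peg3 by -10.04, Plagl1 by -9.50 and Peg10 by -8.39. With 3 reads over the MEF libraries as the floor, the maternal to paternal ratio of Peg3 was at least 862-fold lower in MEFs than in TX 2i ESCs, and for F KSR4 the bound was 988-fold. For Peg10 the bounds were 508-fold and 349-fold. Meg3, H19, Peg3, Peg10, Mest and Plagl1 are on the imprinted lists. Of the imprinted genes called in MEFs the difference was called at 16 of 18 for TX 2i ESCs and at 14 of 17 for F KSR4. Of all genes called in MEFs it was called at 26.2% and 14.5%, and of all genes tested at 14% and 6.08%.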

How the results depend on the processing

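The number of called genes stayed within 1.5 times of 2184 without centring, with own allele totals, with centring by chromosome, with a pseudocount of 1, with minimums of 5 or 100 reads and with limma-voom. With own allele totals 747 genes were called maternal and 2000 paternal. With a minimum of 100 reads, among fewer genes tested, 182 genes were called at 2-fold and over. Without the intensity trend 965 genes were called, 527 maternal and 438 paternal, and a limma test against a 1.2-fold difference called 853, 485 and 368. Leaving out 1 library in turn gave 1289 to 2247 called genes, 713 to 1211 maternal, 576 to 1036 paternal and 470 to 629 at 2-fold and over, with the lowest counts without library 3. The 2 alleles of a library come from the same cells, and ignoring this pairing (no replicate block) left 537 calls, 312 maternal and 225 paternal. The calls of Acta2, Fn1, Col1a1 and Postn were lost without the intensity trend. Of the recomputed values of single genes and lists, 814 kept their direction, call or count, 20 lost a call, 3 gained one and 70 moved. Vim, not called, turned to -0.10 with own allele totals. Beyond the construction of each alternative, the cause was not tested.

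Against TX 2i ESCs, all autosomes gave 1654 calls and a minimum of 100 reads 524. Leaving out a library gave 657 to 749. Against F KSR4, a minimum of 100 reads gave 227 calls and leaving out a library 205 to 456, with 213, 226 and 205 without MEF library 1, 2 or 3. Replicate numbers did not pair these groups (correlations of -0.01 to 0.03), and a replicate block gave 920 and 391 calls. Leaving out unbalanced 10 Mb windows, chosen after seeing the data, gave 867 calls for TX 2i ESCs, and no such window was found for F KSR4. Allelic depth limits shallow genes, where differences under about 1.5-fold were not detectable.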
